A study of Mus musculus with 26 samples.

Results

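A set of 180 fibroblast-expressed genes, out of 18198 in the deposited table, lost expression when mouse embryonic fibroblasts were given Pou5f1, Sox2 and Klf4. They held more of it when Jun was added to the same factors. The set was chosen from measured values. A gene belonged if its mean value in fibroblasts (MEF) was 100 or more, if its level at OSK day 7 was lower than at OSK day 0 by 2 or more on the log2 scale, and if its level at OSK+cJun day 7 was higher than at OSK day 7 by 1.5 or more on that scale. Group levels were means of log2(value + 1) over both libraries, so a log2 difference of 1 is a doubling of value plus 1, and differences of genes near 0 are understated. Collagen chains and Hox genes were left out by the rule, which removed 1 collagen chain (Col3a1) and 0 Hox genes. The MEF threshold alone was met by 7645 genes of the table, so it does not mark a gene as particular to fibroblasts. Of 581 genes with the same MEF level and the same fall in OSK, the 180 members were 31.0%. The other 401, which fell and were not kept, serve below as the nearest comparison. The members lay on 20 chromosomes, and 179 were annotated as protein coding.

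The study followed RNA during the conversion of fibroblasts toward pluripotency, in 26 libraries that fall into 13 groups of 2. OSK+cJun (OSK-cJun in the labels) was MEF infected with retroviruses for Pou5f1, Sox2, Klf4 and Jun, taken at days 0, 1, 3 and 7. OSK+shSap30 (OSK-shSap30) was MEF given the 3 factors and a lentiviral short hairpin against Sap30, taken at day 7, and OSK was MEF given the 3 factors alone, taken at days 0, 1, 3, 5 and 7. The rest were established iPSC and ESC lines, both kept in serum-free medium with LIF and a pair of kinase inhibitors, and low-passage MEF in serum. The labels do not say which of 2 reprogramming media each infected sample was grown in, nor whether replicates were separate cultures, so every p-value measures only the spread between these libraries, which may be technical. Day 0 was not the uninfected state, since Pou5f1 already stood at 11662 and 8974 in OSK day 0 and at 2 and 0 in MEF.

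Fibroblasts make and anchor to an extracellular matrix, and they read it through integrins, contract against it through actin and myosin, and remodel it with secreted proteases. Reprogramming factors silence that programme early, before the pluripotency genes come on. Jun is a subunit of AP-1, a dimeric transcription factor that binds the 7-base site TGANTCA at many enhancers and promoters of mesenchymal genes, and added Jun is known to impede reprogramming of mouse fibroblasts. Sap30 is a subunit of the Sin3 histone deacetylase complex, a corepressor.

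Sequencing depth is unknown, because the deposited values follow nearly the same distribution in every library. The highest value, 21544, is shared by several genes in each library and was reached by 3 members (Sparc, Itgb1 and Igfbp3), whose differences may therefore be understated. Jun stood between 4616 and 8981 in the 8 OSK+cJun libraries and between 321 and 1010 in the 10 OSK libraries, and reads of the delivered and the resident gene cannot be told apart. Sap30 stood at 20 and 41 in OSK+shSap30 and at 301 and 378 in OSK day 7. One OSK day 5 library went against its replicate, with Pou5f1 at 656 in replicate 1 and 21544 in replicate 2. Among all 13 groups the replicates of OSK day 7, which the rule used, were the least alike over the members, with a median absolute log2 difference of 0.807. The immediate early gene Fos also differed between replicates in the groups the rule used, at 2188 and 382 in OSK+cJun day 7, 3771 and 405 in OSK day 7, 384 and 109 in OSK day 0 and 1477 and 53 in MEF.

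Short stretches of 6 member promoters carry the AP-1 letters and are shown because Jun is the factor that was added. The first 4 belong to members among the 12 with the largest day 3 difference between OSK+cJun and OSK. Of those 12 members, 11 had a promoter to search and only these 4 carried the letters. Met and Mylk carry the same letters in members with small day 3 differences. Capitals mark the AP-1 motif, each line runs 5′ to 3′ along the strand of the gene, and the sequences are RefSeq's for GRCm38.p6.
Srpx2: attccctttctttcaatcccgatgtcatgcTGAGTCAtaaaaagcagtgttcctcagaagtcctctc
Il1rn: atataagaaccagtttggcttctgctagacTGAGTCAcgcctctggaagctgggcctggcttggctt
Lrrc15: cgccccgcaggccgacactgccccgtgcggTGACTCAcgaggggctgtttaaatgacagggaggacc
Prss23: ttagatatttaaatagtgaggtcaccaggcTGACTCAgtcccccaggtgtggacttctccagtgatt
Met: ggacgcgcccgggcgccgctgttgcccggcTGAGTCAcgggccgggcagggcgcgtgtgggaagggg
Mylk: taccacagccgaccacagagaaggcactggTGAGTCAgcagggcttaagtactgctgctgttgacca
They lie at chrX:133908336-133908402 on the plus strand (Srpx2), chr2:24336689-24336755 on the plus strand (Il1rn), chr16:30283271-30283337 on the minus strand (Lrrc15), chr7:89518314-89518380 on the minus strand (Prss23), chr6:17463873-17463939 on the plus strand (Met) and chr16:34784856-34784922 on the plus strand (Mylk).

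The AP-1 letters were about as frequent in member promoters as in the other sets, and no test was made. Of the 180 members, 137 had a promoter window of 250 bases before to 50 bases after an annotated start, and TGANTCA stood on either strand in 12 of them (8.76%). The share was 8.64% among genes that fell and were not kept, 6.92% among all tested genes with a window and 8.97% among all promoters in the table. The TEAD letters GGAATG stood in 15.3% of member promoters, 26.6% of those that fell and were not kept and 14.9% of all tested. The ATF/CRE letters TGACGTCA stood in 2 member promoters (1.46%, against 3.30% of all tested), and the CArG box in 3 (2.19%, against 1.60%). All were searched on both strands, and TGACGTCA holds no TGANTCA within it. A match is a description of letters near a start site and says nothing of binding, and sites farther away were not searched.

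By library, the members stood near their MEF level at day 0 and then separated by whether Jun had been added. With added Jun the median member value was 473.5 and 452 in the day 0 libraries, 347 and 313 (day 1), 255 and 235.5 (day 3), then 234 and 152.5 (day 7). In OSK the medians were 434.5 and 373.5 on day 0, 224.5 and 170 (day 1), 67 and 56 (day 3), 82 and 56 (day 5), then 38.5 and 22 (day 7). MEF had medians of 380.5 and 391.5. The genes that fell and were not kept had medians of 72 and 68 at OSK+cJun day 3, close to their 61 and 53 at OSK day 3, while the members' medians at those groups lay apart. In bulk samples like these, fewer cells with a fibroblast level and less RNA per cell cannot be told apart.

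**Figure D1:**
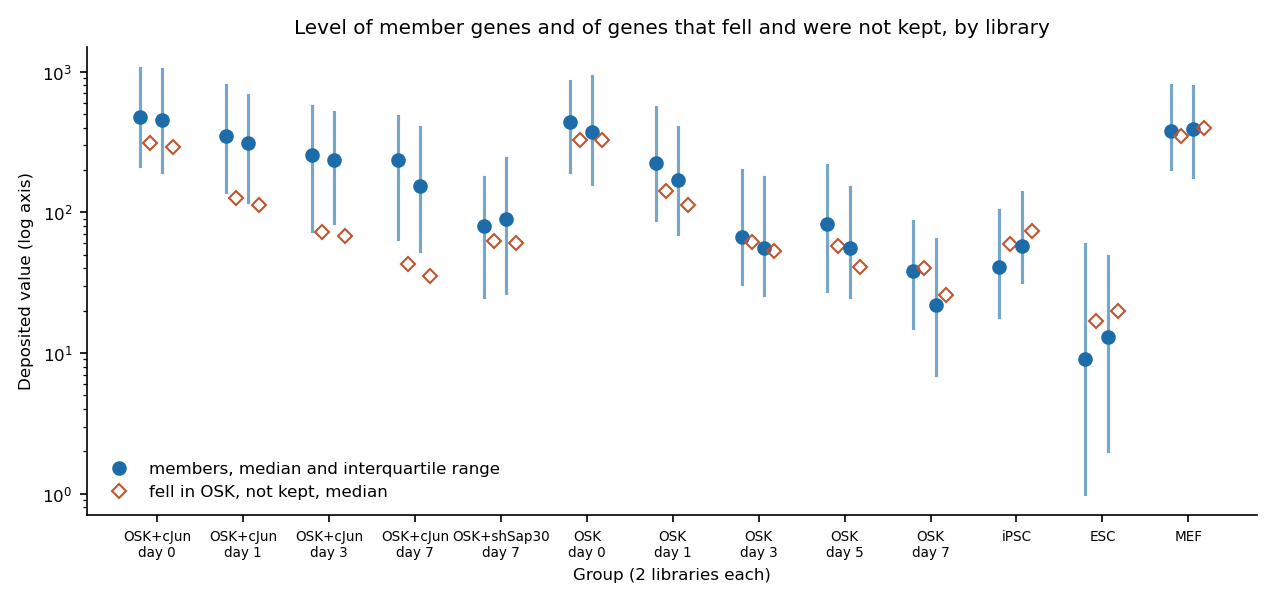
Median (filled circles) and interquartile range (bars) of the deposited values of the 180 members in each of 26 libraries, on a log axis, with the median of the 401 genes that fell in OSK and were not kept (open diamonds). Members sit at 255 and 235.5 in OSK+cJun day 3, against 67 and 56 in OSK day 3, while the diamonds sit at 72 and 68, against 61 and 53.

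The values that chose the members are given here as a description only. Of the fall from OSK day 0 to day 7, measured on the log2 scale, a median member kept 65.9% at OSK+cJun day 7, with an interquartile range of 47.8% to 89.1%. As many as 30 members kept 100% or more of it and 50 kept under 50%. Kept did not mean unchanged: 95 of 180 members were lower at OSK+cJun day 7 than at OSK day 0 by 1 or more on the log2 scale with libraries that did not overlap (12.8% of all tested genes did so), and 6 were higher (12.5%). Against MEF, 16 members were higher at OSK+cJun day 7 by the same criterion (15.9% of all tested) and 94 were lower (14.2%). Members already differed from MEF in both directions at day 0, with 36 higher in OSK day 0 than in MEF by that criterion (9.18% of all tested) and 35 lower (6.10%). The mean MEF value was 100.5 for the members Nfatc1 and Pde8a and 99 for Cdh18, just outside. The fall in OSK was 2.01 for the member Axl and 1.99 for Adam9, just outside. The OSK+cJun excess at day 7 was 1.501 for the member Gpx8 and 1.497 for Mir22hg, just outside.

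Added Jun went with higher levels of the members already at day 3, in libraries the rule did not use. Of 180 members, 91 were higher in OSK+cJun than in OSK at day 3 and 0 were lower, called at a limma adjusted p under 0.05 and a log2 difference of 1 or more, while 4.0% of all tested genes were called higher and 3.54% lower. The median member difference was 1.54 (interquartile range 1.01 to 2.33), the median over all 16038 tested genes was -0.02, and the median of the genes that fell and were not kept was 0.26, with 31 of 401 called higher and 6 lower. Without OSK day 3 replicate 2 the members called were 58, and without that library the count of not-kept genes called higher was 13. Leaving out OSK+cJun day 3 replicate 1 gave 14 of the not-kept genes, OSK+cJun day 3 replicate 2 gave 20 and OSK day 3 replicate 1 gave 19. The difference between the 2 sets of genes was not tested.

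The summed macrophage, endothelial, skeletal muscle, keratinocyte and neural markers were higher at the same comparison, though few genes of each list stood at 100 or more. The 8 pluripotency markers went the other way, at 49 to 99 in OSK+cJun day 3 and 734 to 851 in OSK day 3. At day 7 they summed to 129 to 219 in OSK+cJun and 980 to 1058 in OSK. The part of all these lists in the result was not tested. The summed fibroblast list of 12 genes, none of them a member, was 59563 to 64119 in OSK+cJun day 3 and 59332 to 61448 in OSK day 3, with 9 of its 12 genes at 100 or more in both libraries of each group. Near-equal sums do not show that each gene held its level. Col3a1, on this list and kept from the members only as a collagen, had 7737 and 7737 in OSK+cJun and 3041 and 2266 in OSK (log2 difference 1.56, limma adjusted p = 0.0341). At day 7, which the rule used, the list summed to 59738 to 61365 in OSK+cJun and 41832 to 42735 in OSK. The macrophage list of 8 genes summed to 805 to 941 in OSK+cJun and 108 to 191 in OSK, most of it Cd68 at 688 and 883 in OSK+cJun and at 76 and 57 in OSK, while the pan-leukocyte gene Ptprc stood at 66 and 27 in OSK+cJun and at 76 and 37 in OSK. The endothelial list of 8 genes summed to 966 to 1771 in OSK+cJun and 440 to 447 in OSK, with Kdr, a receptor of vascular endothelial growth factor, at 957 and 317 in OSK+cJun and at 92 and 36 in OSK. That list had 2 genes at 100 or more in both OSK+cJun libraries and 1 in both OSK libraries, so a gene other than Kdr was among them in each group. Some of its other genes were near 0 in both groups, such as Pecam1 at 1 and 5 in OSK+cJun and 10 and 9 in OSK and Tie1 at 0 and 0 in OSK+cJun and 0 and 1 in OSK. The 5 skeletal muscle genes in the table summed to 759 to 1343 in OSK+cJun and 45 to 47 in OSK, with 1 at 100 or more in both OSK+cJun libraries and 0 in OSK. The 7 keratinocyte genes summed to 169 to 188 in OSK+cJun and 68 to 128 in OSK, and the 8 neural genes to 940 to 1166 in OSK+cJun and 867 to 891 in OSK. Of the keratinocyte genes 1 was at 100 or more in both OSK+cJun libraries and 0 in OSK, and of the neural genes 2 and 3.

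Srpx2 (ENSMUSG00000031253, chrX:133908426-133932446, plus strand, mm10), which encodes a secreted sushi-repeat protein linked to urokinase receptor signalling, had the largest day 3 difference of the named members. It stood at 377 and 373 in OSK+cJun day 3 and at 9 and 8 in OSK day 3, a log2 difference of 5.31 (SE 0.46, limma adjusted p = 3.81e-06). Both OSK+cJun libraries were also above the MEF values of 150 and 177. Fxyd5, a regulator of the sodium pump that loosens cell contacts, had 616 and 486 in OSK+cJun and 17 and 18 in OSK (log2 difference 4.89, SE 0.77, limma adjusted p = 0.000626). Cemip, which takes part in hyaluronan breakdown, had 1989 and 2076 in OSK+cJun and 161 and 161 in OSK (log2 difference 3.65, SE 0.44, limma adjusted p = 5.94e-05). No library of one group overlapped the other for these 3 genes.

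Galnt18, a glycosyltransferase gene of the mucin-type family, had 177 and 230 in OSK+cJun day 3 and 15 and 12 in OSK day 3 (log2 difference 3.81, limma adjusted p = 6.57e-05). Lrrc15, a surface protein of activated fibroblasts, had 88 and 103 in OSK+cJun and 7 and 9 in OSK (log2 difference 3.43, limma adjusted p = 6.65e-05), far under its 1139 and 1900 in MEF. The imprinted zinc finger gene Zim1 had 73 and 91 in OSK+cJun and 6 and 7 in OSK (log2 difference 3.46, limma adjusted p = 0.00186). In all 3 the OSK+cJun libraries stood above every OSK library of days 3 to 7.

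Replicates disagreed for other members with large differences. Il1rn, the interleukin 1 receptor antagonist gene, had 1421 and 301 in OSK+cJun day 3 and 159 and 20 in OSK day 3, a log2 difference of 3.50 that was not called (limma adjusted p = 0.0866). Prss23, a serine protease gene, had 877 and 450 in OSK+cJun and 108 and 32 in OSK (log2 difference 3.39, limma adjusted p = 0.00622). Its call was lost without OSK+cJun day 3 replicate 1 (2.91) or without OSK day 3 replicate 2 (2.53). Prss23os, annotated antisense to Prss23, is also a member, and the kit as labelled does not mark strand, so their reads cannot be told apart.

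The smallest day 3 differences among the members were under 0. The rule required a day 7 gap of every member, so the day 7 values below are a description only. Pcdh7, a protocadherin adhesion gene, had 512 and 1183 in OSK+cJun day 3 and 700 and 1073 in OSK day 3, and its groups overlapped (log2 difference -0.15, limma adjusted p = 0.984). At day 7 it stood at 545 and 719 in OSK+cJun and at 221 and 196 in OSK. Slco2a1, a prostaglandin transporter gene, had 722 and 580 in OSK+cJun day 3 and 1025 and 855 in OSK day 3 (log2 difference -0.53, not called), and at day 7 had 455 and 461 in OSK+cJun and 195 and 121 in OSK. Stk26, Mylk, Clca3a1 and the choline transporter gene Slc5a7 also had day 3 differences under 0, between -0.62 and -2.38, and none was called.

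**Figure D2:**
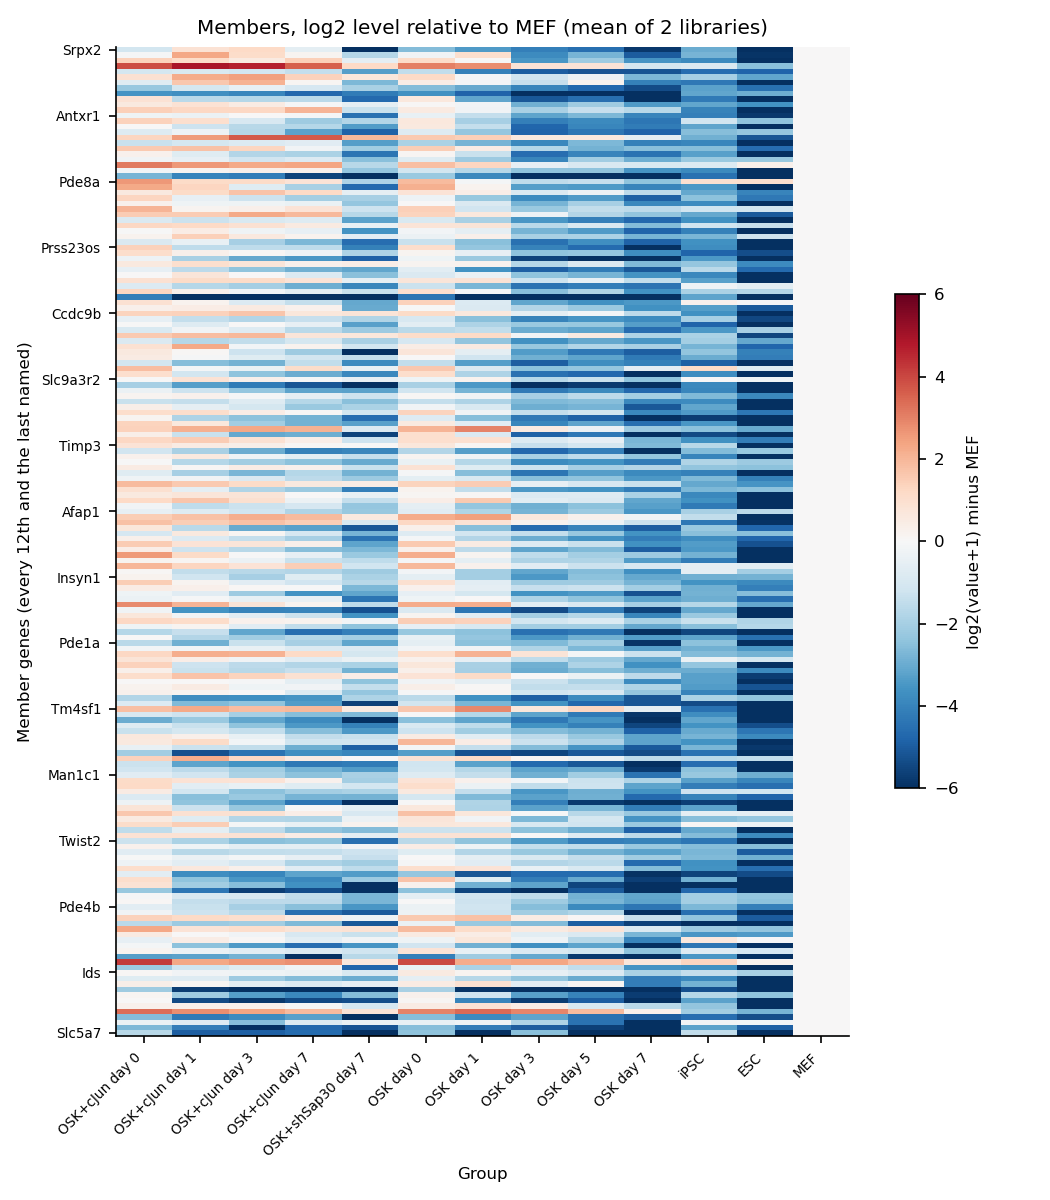
Log2(value + 1) of each of the 180 members (rows, ordered by the day 3 difference between OSK+cJun and OSK, largest at the top) in 13 groups (columns), as the mean of 2 libraries minus the MEF mean, red above and blue below MEF. OSK columns turn blue by day 3 in most rows, OSK+cJun columns stay paler, and the ESC column is the darkest blue.

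Of the 180 members, 45 were on at least 1 of the gene lists described from here on and 135 were on none. Day 3 counts on these lists stand against 91 of all 180 members called higher (50.6%) and 0 lower. Of all tested genes, 4.0% were called higher and 3.54% lower. Caveola, annexin and S100 genes, whose products shape and bind the inner face of the membrane, were among the members with large differences. Of 15 genes on that list 5 were members. At day 3 all 8 genes called on the whole list (53.3%) were higher in OSK+cJun, 4 of them members. Anxa8 (ENSMUSG00000021950, chr14:34085981-34100571, plus strand), an annexin, had 3152 and 3265 in OSK+cJun day 3 and 214 and 226 in OSK day 3 (log2 difference 3.86, SE 0.25, limma adjusted p = 2.16e-07). S100a4, a calcium-binding fibroblast marker, had 806 and 1047 in OSK+cJun and 67 and 45 in OSK (log2 difference 4.04, SE 0.63, limma adjusted p = 0.00059). S100a6, its relative, had 6123 and 5488 in OSK+cJun and 1435 and 823 in OSK (log2 difference 2.41, limma adjusted p = 5.39e-05). Each of the 3 genes stood above its MEF values in both OSK+cJun day 3 libraries. Cav1, the main caveolar coat gene, had 476 and 529 in OSK+cJun and 57 and 88 in OSK (log2 difference 2.81, SE 0.55, limma adjusted p = 0.00315), and its call was lost with a pseudocount of 0.1 (adjusted p = 0.106). Cavin3, a caveola adaptor gene, had 1376 and 1153 in OSK+cJun and 534 and 342 in OSK and was not called (limma adjusted p = 0.102). Without OSK day 3 replicate 2 the whole list had 5 called, while 4 members were called on leaving out any 1 of the 4 libraries.

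Secreted signals and their binding proteins held 9 members of the 47 listed genes in the table. At day 3, 7 of the 9 members were called higher in OSK+cJun (77.8%, against 50.6% of all members). On the whole list 9 were higher and 1 lower (19.1% and 2.13%, against 4.0% and 3.54% of all tested genes). Without OSK+cJun day 3 replicate 1 the members called were 4 and the whole list 5 higher and 2 lower. Igfbp3, which binds insulin-like growth factors, stood at 21544 and 11664 in OSK+cJun day 3 and at 1792 and 1987 in OSK day 3 (log2 difference 3.07, SE 0.42, limma adjusted p = 0.000183), with 1 library at the highest value of the table. Igfbp6, another such binding protein, had 345 and 362 in OSK+cJun and 58 and 25 in OSK (log2 difference 3.18, limma adjusted p = 0.0004). Igf1, the growth factor itself, had 56 and 70 in OSK+cJun and 10 and 4 in OSK (log2 difference 3.10, limma adjusted p = 0.00059), against 214 and 190 in MEF. The binding proteins stood above their MEF values of 1251 and 1237 for Igfbp3 and 135 and 164 for Igfbp6, and the ligand under its own.

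Hbegf, a membrane-anchored ligand of the EGF receptor, had 94 and 147 in OSK+cJun day 3 and 14 and 11 in OSK day 3 (log2 difference 3.14, limma adjusted p = 0.00075). Wnt5a, a ligand of non-canonical Wnt signalling, had 867 and 710 in OSK+cJun and 137 and 206 in OSK (log2 difference 2.22, limma adjusted p = 0.0131), and the call was lost without OSK+cJun day 3 replicate 1 (2.07), OSK+cJun day 3 replicate 2 (2.36) or OSK day 3 replicate 1 (1.92). The BMP antagonist gene Grem1 did not separate, with 396 and 216 in OSK+cJun and 317 and 242 in OSK (log2 difference 0.08, not called). Tgfb1, the latent cytokine gene, had 207 and 285 in OSK+cJun and 95 and 85 in OSK, without overlap but not called (limma adjusted p = 0.0628).

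Receptors and surface proteins had 7 members of 38 listed genes. At day 3, 3 of the 7 were called higher (42.9%), with 6 higher and 2 lower on the whole list (15.8% and 5.26%). Tnfrsf12a, the receptor for the cytokine TWEAK, had 617 and 736 in OSK+cJun day 3 and 58 and 71 in OSK day 3 (log2 difference 3.37, SE 0.37, limma adjusted p = 2.45e-05). Axl, a receptor tyrosine kinase for Gas6, had 3407 and 3031 in OSK+cJun and 1097 and 1008 in OSK (log2 difference 1.61, SE 0.26, limma adjusted p = 0.000679). Neither receptor overlapped between the groups. Egfr, the EGF receptor gene, had 228 and 158 in OSK+cJun and 130 and 68 in OSK (log2 difference 1.01, not called), and Cd248, a stromal surface protein gene, had 95 and 55 in OSK+cJun and 38 and 19 in OSK (log2 difference 1.39, limma adjusted p = 0.0506). Met, the receptor of hepatocyte growth factor whose promoter window is shown above, had 290 and 267 in OSK+cJun and 226 and 174 in OSK (log2 difference 0.49, not called).

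Integrins and focal adhesion genes held 4 members of 20 listed, of which 1 was called higher at day 3. On the whole list 4 were higher and 1 lower (20% and 5%). Itgb3, a beta chain that pairs with Itgav in vitronectin receptors, had 129 and 232 in OSK+cJun day 3 and 31 and 45 in OSK day 3 (log2 difference 2.18, SE 0.40, limma adjusted p = 0.00161), a call lost when the fit held only those 4 libraries (adjusted p = 0.0556). Itgav had 1133 and 1195 in OSK+cJun and 679 and 597 in OSK, a difference of 0.87 that fell short of the size threshold (limma adjusted p = 0.0287). Itgb1, the beta chain common to many integrins, stood at 21544 in both OSK+cJun libraries and at 11662 and 11663 in OSK, so its difference of 0.89 is bounded by the top of the scale. Tgfb1i1, a focal adhesion adaptor gene, had 126 and 151 in OSK+cJun and 61 and 81 in OSK (log2 difference 0.96, not called), against 1292 and 1162 in MEF. Leaving out OSK+cJun day 3 replicate 1 or OSK day 3 replicate 1 gave 2 genes higher on the whole list.

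Contractile and actin-binding genes were mostly not members: 15 of the 22 listed genes fell and were not kept, and 3 were members. At day 3, 6 of the 22 were called higher in OSK+cJun (27.3%) and 0 lower, 2 of them members. Without OSK+cJun day 3 replicate 1 the whole list had 1 called and the members 1, and without OSK day 3 replicate 2 they had 2 and 1. Vcl, the vinculin gene that links integrins to actin, had 2188 and 2353 in OSK+cJun day 3 and 901 and 948 in OSK day 3 (log2 difference 1.29, SE 0.20, limma adjusted p = 0.000409). Both OSK+cJun values were under the 7714 and 6922 of MEF. Tpm2, a tropomyosin gene, had 399 and 190 in OSK+cJun and 83 and 29 in OSK (log2 difference 2.46, limma adjusted p = 0.00481), a call lost without OSK+cJun day 3 replicate 1 (1.93) or OSK day 3 replicate 2 (1.72). Mylk, the myosin light chain kinase gene, was low throughout reprogramming, with 32 and 12 in OSK+cJun day 3 and 33 and 29 in OSK day 3, against 382 and 215 in MEF.

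Matrix genes other than collagens held 5 members and 20 genes that fell and were not kept among 38 listed. On the whole list 5 were called higher at day 3 (13.2%) and 3 lower (7.89%), and 1 member, Srpx2, was among those higher. Without OSK day 3 replicate 2 the whole list had 3 higher and 4 lower, and without OSK+cJun day 3 replicate 1 the members called were 2. Fbn1, the fibrillin of elastic fibre microfibrils, had 6131 and 7728 in OSK+cJun day 3 and 2721 and 3276 in OSK day 3, without overlap but not called (log2 difference 1.20, limma adjusted p = 0.0915). Fbln5, which binds elastin, had 481 and 512 in OSK+cJun and 161 and 132 in OSK (log2 difference 1.76, limma adjusted p = 0.0843). The MEF values of Fbln5 were 3269 and 5489, so it was low in both groups, while Fbn1 in OSK+cJun was at its MEF values of 6131 and 7728. Sparc, a collagen-binding glycoprotein gene, had 3609 and 6925 in OSK+cJun and 1630 and 2402 in OSK (log2 difference 1.34, limma adjusted p = 0.0556). Ccn4, a matricellular Wnt target gene, had 136 and 99 in OSK+cJun and 33 and 25 in OSK (log2 difference 1.98, limma adjusted p = 0.0694). Lamb1, a laminin chain of basement membranes that is on none of the lists, had 2260 and 2310 in OSK+cJun and 1010 and 832 in OSK (log2 difference 1.32, limma adjusted p = 0.0126), a call lost without OSK+cJun day 3 replicate 1 (1.33), OSK+cJun day 3 replicate 2 (1.30) or OSK day 3 replicate 2 (1.18).

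Of 28 proteases and inhibitors, 7 were members and 7 fell and were not kept. At day 3, 5 on the list were called higher (17.9%) and 0 lower, and 3 of the 5 were members. Each of these 3 calls was lost on leaving out at least 1 library, and the members called were 0 without OSK+cJun day 3 replicate 1 or without OSK day 3 replicate 2. Without either of those libraries the whole list had 1 higher and 0 lower. It had 2 higher and 1 lower without OSK+cJun day 3 replicate 2, and 3 higher and 0 lower without OSK day 3 replicate 1. Timp3, a metalloproteinase inhibitor held in the matrix, had 3037 and 3614 in OSK+cJun day 3 and 748 and 1330 in OSK day 3, and Timp2, its soluble relative, had 1650 and 1608 in OSK+cJun and 666 and 593 in OSK. Htra1, a secreted serine protease gene, had 440 and 270 in OSK+cJun and 107 and 55 in OSK. The groups of these 3 genes did not overlap. Adam12, a membrane metalloprotease gene, had 60 and 56 in OSK+cJun and 27 and 26 in OSK (log2 difference 1.10, not called), and had already stood at 353 and 255 at OSK+cJun day 0 and 157 and 103 at OSK day 0, against 1212 and 1327 in MEF.

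On the list of mesenchymal transcription factors 5 of the 37 in the table were members and 9 fell and were not kept. At day 3, 1 member, Runx2, was called higher. Among the 36 tested 1 was higher and 1 lower (2.78% each), under the shares of all tested genes (4.0% and 3.54%). Runx2, a regulator of bone-forming mesenchyme, had 293 and 202 in OSK+cJun day 3 and 44 and 40 in OSK day 3 (log2 difference 2.51, SE 0.46, limma adjusted p = 0.00181). Its OSK+cJun values overlapped the 316 and 275 of MEF. Twist2 had 66 and 80 in OSK+cJun and 45 and 34 in OSK, and Snai2 had 61 and 32 in OSK+cJun and 28 and 13 in OSK, and neither was called. Osr1, a factor of early mesenchyme, had 67 and 26 in OSK+cJun and 77 and 9 in OSK, and its groups overlapped. Of the AP-1 subunits other than Jun 0 were members, 2 fell and were not kept, and 1 of the 10 tested was called higher at day 3, or 0 on leaving out any 1 of the 4 libraries.

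At day 1 the members had begun to separate, and the calls were few. Of 180 members, 11 were called higher in OSK+cJun than in OSK at day 1 and 0 lower, while 1.24% of all tested genes were called higher and 0.742% lower. The median member difference was 0.64, against -0.02 over all tested genes and -0.04 for the genes that fell and were not kept, of which 3 were called higher and 6 lower. All 11 were also called at day 3, and a further 80 were called at day 3 alone. Leaving out OSK day 1 replicate 2 left 2 called, OSK day 1 replicate 1 left 7, and either OSK+cJun day 1 library left 4. With a fit of those 4 libraries alone limma called 0 members higher, and 0 of all 16038 tested genes. In that fit 75 members had an unadjusted p under 0.05 (51 in the fit of all libraries). Marker lists differed at day 1 as well. The macrophage list summed to 423 to 633 in OSK+cJun day 1 and 124 to 198 in OSK day 1, the endothelial list to 1129 to 1637 in OSK+cJun and 360 to 495 in OSK, and the keratinocyte genes to 380 to 393 in OSK+cJun and 53 to 60 in OSK. The skeletal muscle genes summed to 816 to 1402 in OSK+cJun and 187 to 203 in OSK, and the neural genes to 1451 to 1738 in OSK+cJun and 832 to 1259 in OSK. Few genes of these 5 lists, in the order given, stood at 100 or more in both libraries: 1, 2, 1, 1 and 2 in OSK+cJun and 0, 2, 0, 1 and 2 in OSK. The fibroblast list was slightly lower, at 67455 to 68511 in OSK+cJun and 72077 to 73032 in OSK. The 8 pluripotency markers were low in both groups, at 14 to 18 in OSK+cJun day 1 and 52 to 61 in OSK day 1. The part of all these lists in the result was not tested.

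Srpx2 had 298 and 292 in OSK+cJun day 1 and 13 and 16 in OSK day 1 (log2 difference 4.26, SE 0.46, limma adjusted p = 0.000183). Anxa8 had 3609 and 3771 in OSK+cJun and 821 and 919 in OSK (log2 difference 2.09, SE 0.25, limma adjusted p = 0.000672). Neither gene overlapped between the groups, and their calls held on leaving out any 1 of the 4 libraries. Galnt18 had 178 and 300 in OSK+cJun and 33 and 20 in OSK (log2 difference 3.12, limma adjusted p = 0.00246, lost without OSK day 1 replicate 2 at 2.77). Hbegf had 431 and 486 in OSK+cJun and 81 and 41 in OSK (log2 difference 2.97, limma adjusted p = 0.00546), a call held only without OSK day 1 replicate 1 among the 4 fits that left out a library; the differences were 3.05 and 2.88 without OSK+cJun day 1 replicate 1 or 2 and 2.48 without OSK day 1 replicate 2. The other 7 members called had differences between 1.01 (Dse) and 2.28 (Cemip). Srpx2 had already differed at day 0, with 69 and 83 in OSK+cJun and 29 and 23 in OSK. At day 0 as a whole, 6 members were higher in OSK+cJun by 1 or more without overlap (2.12% of all tested genes) and 4 lower (2.36%), in a comparison that shares OSK day 0 with the rule.

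**Figure D3:**
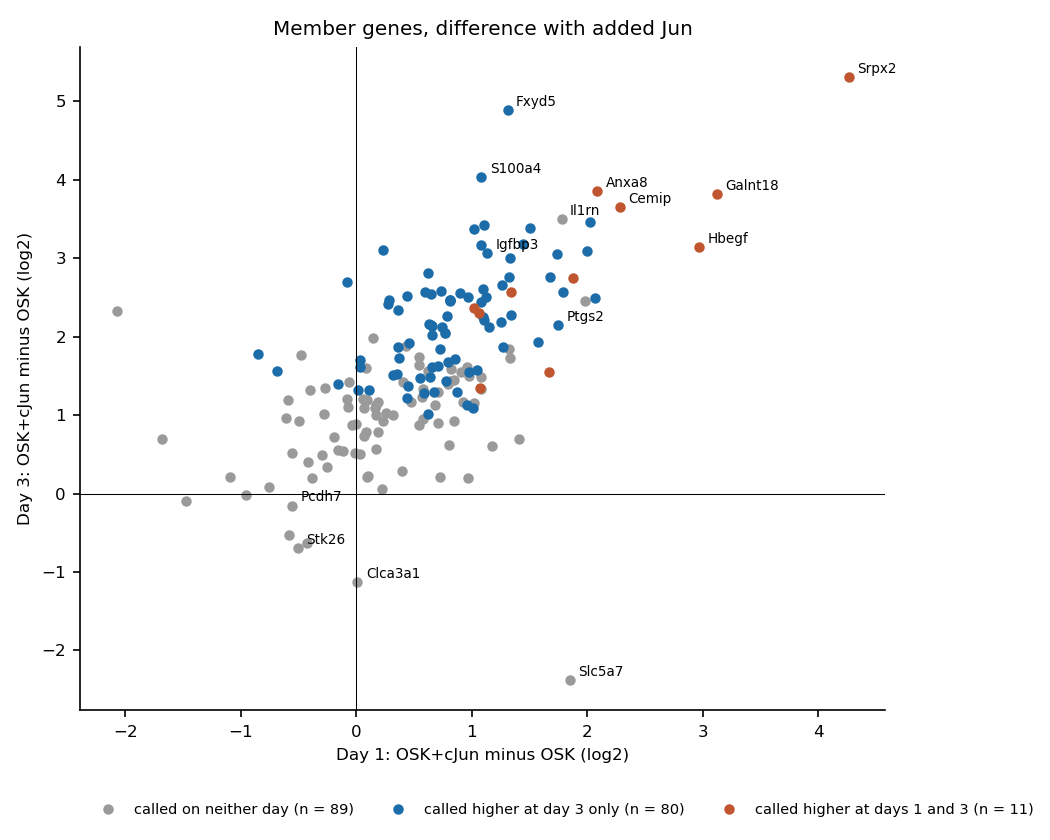
Log2 difference of each member between OSK+cJun and OSK at day 1 (horizontal axis) and day 3 (vertical axis), with 11 members called higher on both days in orange, 80 called at day 3 alone in blue and 89 called on neither in grey. Most points lie above 0 at day 3, and Srpx2 stands apart at 4.26 and 5.31.

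**Figure D4:**
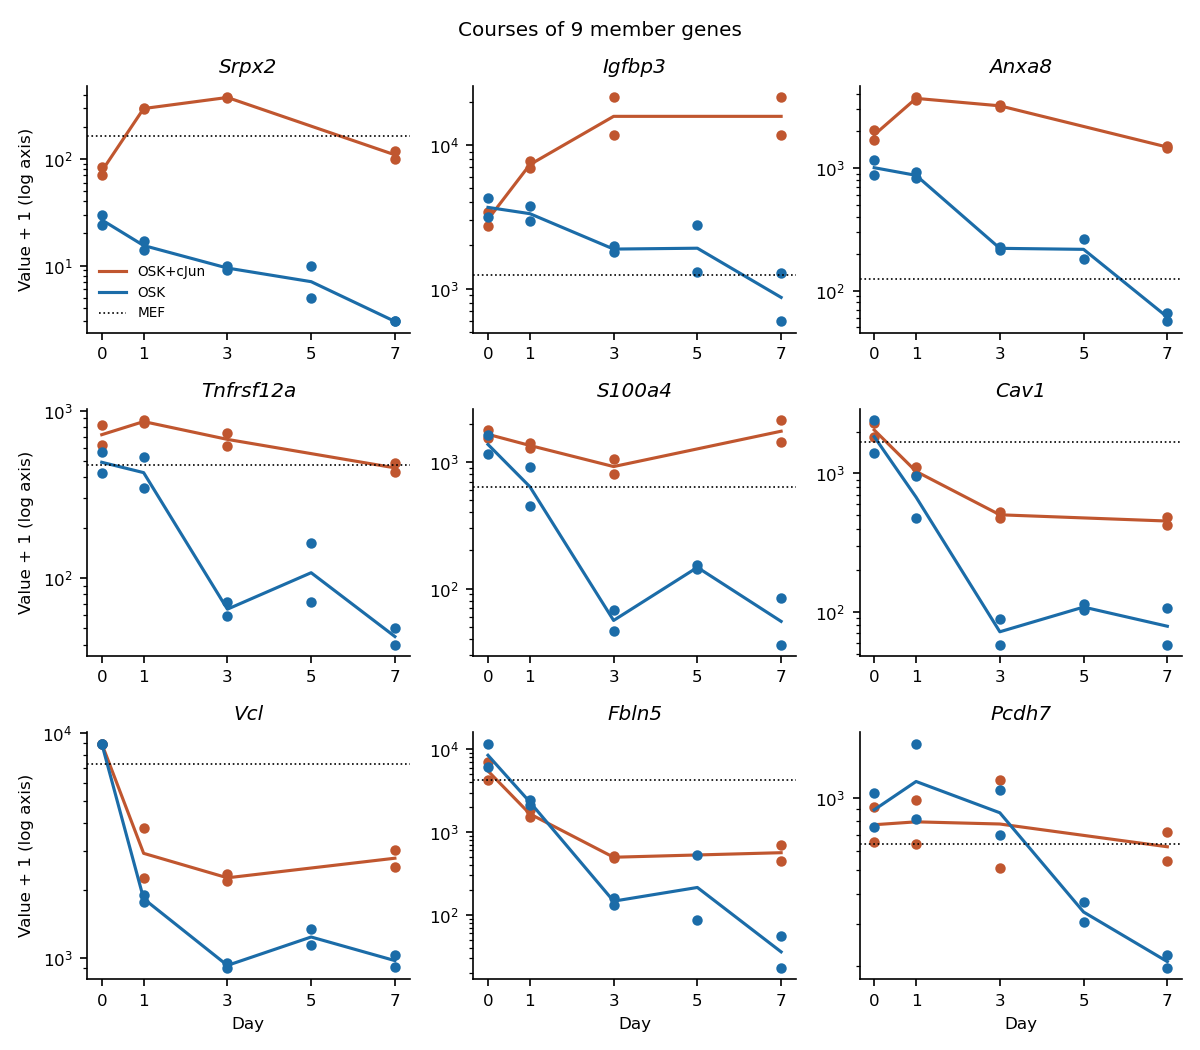
Value plus 1 (log axis) by day for 9 members in OSK+cJun (orange) and OSK (blue), with points for each library, lines through the means of log values and a dotted line at the MEF mean. Srpx2 and Anxa8 are apart by day 1, and Vcl and Fbln5 fall in both courses before they part. Pcdh7 overlaps at day 3 and is apart at day 7, where the rule required a gap.

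Without added Jun the members fell mainly between days 0 and 3. By the median member, 26.2% of the log2 fall to day 7 was done by day 1, 65.6% by day 3 and 67.4% by day 5, and 30, 131 and 143 of the 180 members had done 50% or more by those days. These shares use the rule's own day 0 and day 7 libraries and are a description. So is the count for the first day, in which 92 members were lower at OSK day 1 than at OSK day 0 by 1 or more without overlap (8.14% of all tested genes) and 5 were higher (7.32%). Between days 1 and 3, whose libraries the rule did not use, 76 members fell and 0 rose, while 3.01% of all tested genes were called lower and 3.55% higher. The rule required a fall from day 0 to day 7, which spans these days, so a fall here was partly set in advance. The median member change was -1.41, against -0.02 over all tested genes. The genes that fell and were not kept had a median of -1.08, with 115 of 401 called lower and 0 higher. The fall was therefore not shown to be particular to the members. The members called were 36 without OSK day 1 replicate 1 and 42 without OSK day 3 replicate 2.

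The steepest step belonged to Fxyd5 among the members named here, with 17 and 18 at OSK day 3 and 656 and 403 at OSK day 1 (log2 change -4.80, limma adjusted p = 0.00082). Fbln5 stood at 161 and 132 at day 3 and 2469 and 2151 at day 1 (log2 change -3.97, limma adjusted p = 0.000572). Tnfrsf11b, the decoy receptor osteoprotegerin, stood at 48 and 34 at day 3 and 549 and 402 at day 1 (log2 change -3.51, limma adjusted p = 1.46e-05). Libraries of the 2 days did not overlap for any of the 3. Vcl differed in timing, since it already stood at 1900 and 1765 at OSK day 1 and at 8974 in both libraries of OSK day 0, and its later change of -0.99 missed the size threshold.

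From day 3 to day 5 the median member change was near 0, and 1 member was called. The median change was 0.06, against 0.00 over all tested genes, 0 members rose and 1 fell, Ebf3, while 0.237% of all tested genes were called lower and 0.175% higher. Ebf3, a factor of neural and mesenchymal development, stood at 9 and 2 at OSK day 5 and 38 and 19 at OSK day 3 (log2 change -2.35, SE 0.49, limma adjusted p = 0.0448). The call was lost without OSK day 5 replicate 2 (-1.48), OSK day 3 replicate 1 (-1.87) or OSK day 3 replicate 2 (-2.83). Without OSK day 5 replicate 1, the library with low Pou5f1, 2 members were called.

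With added Jun, 59 members were lower at OSK+cJun day 1 than at OSK+cJun day 0 by 1 or more without overlap (8.39% of all tested genes) and 10 were higher (8.54%), a count given without a test. Between days 1 and 3 the calls were few. Of 180, 3 fell and 0 rose, with 0.617% of all tested genes called lower and 1.25% higher, and the median change was -0.39, against -0.01 over all tested genes. The genes that fell and were not kept had a median of -0.71, and 37 of 401 were called lower. The 3 members were Ptgs2, the inducible cyclooxygenase gene, at 887 and 1380 at OSK+cJun day 3 and 7737 and 4631 at OSK+cJun day 1 (log2 change -2.43, limma adjusted p = 0.00658), Tnfrsf11b at 232 and 272 against 1076 and 936 (-1.99, limma adjusted p = 0.0072) and the semaphorin gene Sema3c at 918 and 807 against 2154 and 2043 (-1.28, limma adjusted p = 0.0177). No library overlapped between the days, yet the count was 0 without OSK+cJun day 3 replicate 1 or OSK+cJun day 1 replicate 1. Without those libraries the change was -2.12 and -2.06 for Ptgs2 and -1.88 and -1.89 for Tnfrsf11b, and Sema3c lost its call without any of the 4 libraries (-1.38 to -1.19).

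The difference between the courses was tested directly for days 1 to 3. Myof (ENSMUSG00000048612, chr19:37899036-38043577, minus strand), the gene of a membrane-repair ferlin, was the 1 member called, and the only gene of 16038 called in that direction (0.00624%), with 0.0187% called in the other. Its values were 3773 and 4013 in OSK+cJun day 3, 4616 and 5023 in OSK+cJun day 1, 827 and 554 in OSK day 3, and 4013 and 3154 in OSK day 1. Its change was higher in OSK+cJun by 2.08 (SE 0.32, limma adjusted p = 0.0288). The call was lost without OSK+cJun day 3 replicate 1 (2.13) or 2 (2.04), OSK+cJun day 1 replicate 1 (2.02), OSK day 3 replicate 2 (1.80) or OSK day 1 replicate 1 (1.91). Myof also lost its call when only those 8 libraries were fitted (limma adjusted p = 0.12). That fit called 4 other members, out of 8 genes among all 16038. The median member difference between courses was 0.96, against 0.00 over all tested genes and 0.34 for the genes that fell and were not kept.

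With the hairpin against Sap30 the members stood at an intermediate level at day 7. None of the 13 groups was given a control hairpin, so loss of Sap30 and delivery of a lentiviral hairpin cannot be told apart. The median member value was 80.5 and 89 in OSK+shSap30 day 7, against 38.5 and 22 in OSK day 7, close to the 82 and 56 of OSK day 5. On the scale of the OSK fall the median member stood at 37.7% with the hairpin, with 59 members at 50% or more and 22 below 0. In a comparison that shares OSK day 7 with the rule, and so is given without a test, 105 members were higher in OSK+shSap30 by 1 or more without overlap (9.45% of all tested genes) and 5 were lower (10.3%). The genes that fell and were not kept also leaned upward, with 137 of 401 higher and 16 lower and a median of 0.73, against 1.33 for the members. The fibroblast marker list stood the other way, at 22791 to 34238 in OSK+shSap30 day 7 and 41832 to 42735 in OSK day 7. The endothelial list summed to 715 to 950 in OSK+shSap30 and 325 to 503 in OSK, the keratinocyte genes to 158 to 359 in OSK+shSap30 and 44 to 97 in OSK, and the 8 pluripotency markers to 234 to 338 in OSK+shSap30 and 980 to 1058 in OSK. The macrophage, neural and skeletal muscle sums overlapped between these groups, and the part of the lists in the result was not tested.

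Among the members with the largest hairpin differences, some stood higher with the hairpin than with added Jun. Stk26, a kinase gene, had 93 and 64 in OSK+shSap30 day 7 and was listed at 0 in both OSK day 7 libraries, with 53 and 61 in OSK+cJun day 7. Adamts5, an aggrecan-cleaving protease gene, had 110 and 183 in OSK+shSap30, 53 and 36 in OSK+cJun and 18 and 8 in OSK. Fgf10, a mesenchymal growth factor gene, had 82 and 96 in OSK+shSap30, 69 and 62 in OSK+cJun and 44 and 0 in OSK. In these 3 both hairpin libraries lay above both OSK+cJun libraries. Over all members the balance lay the other way, with 86 higher in OSK+cJun day 7 than in OSK+shSap30 day 7 by 1 or more without overlap (11.7% of all tested genes) and 6 lower (11.2%), a description that uses a group of the rule. Lrrc15 had 67 and 96 in OSK+shSap30, 46 and 65 in OSK+cJun and 4 and 1 in OSK. Cspg4, a pericyte proteoglycan gene, had 210 and 319 in OSK+shSap30, 401 and 351 in OSK+cJun and 27 and 16 in OSK.

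Other members were at or under the OSK level with the hairpin. Srpx2 had 1 and 0 in OSK+shSap30 day 7, 118 and 99 in OSK+cJun day 7 and 2 and 2 in OSK day 7. Tgfb1 had 18 and 12 in OSK+shSap30, 204 and 282 in OSK+cJun and 64 and 19 in OSK. Rgs4, a regulator of G protein signalling, had 6 and 5 in OSK+shSap30, 235 and 96 in OSK+cJun and 24 and 8 in OSK. Plcd1, a phospholipase C gene, had 2 and 0 in OSK+shSap30, 39 and 29 in OSK+cJun and 4 and 4 in OSK. For all 4 both OSK+shSap30 libraries lay under both OSK+cJun libraries, and of the 4 only Rgs4, in OSK+cJun, overlapped its MEF values (312 and 98).

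**Figure D5:**
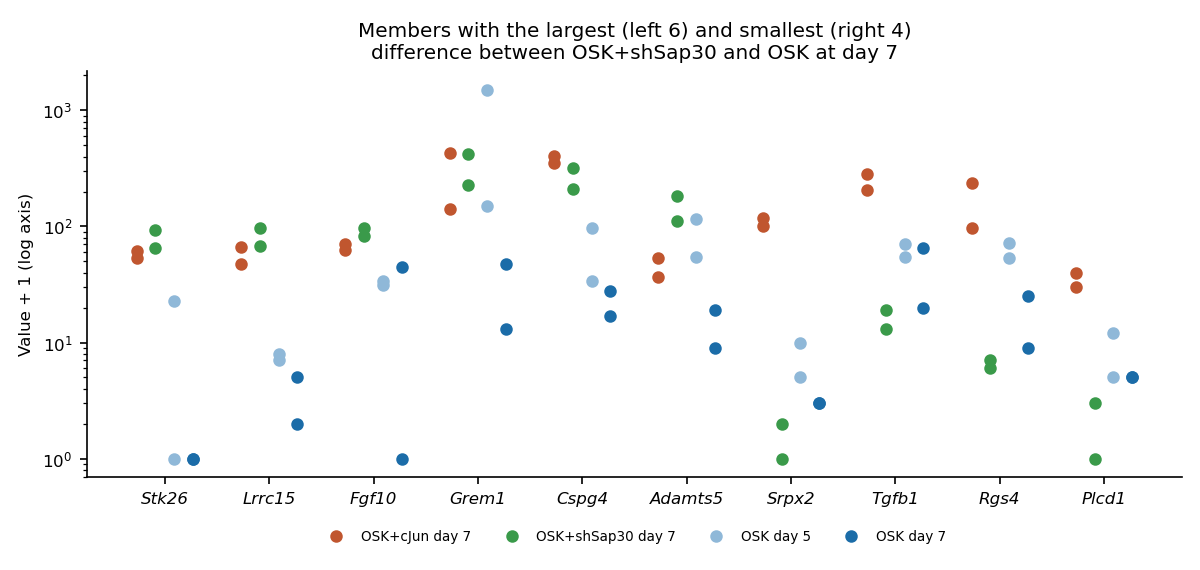
Value plus 1 (log axis) of 10 members in OSK+cJun day 7, OSK+shSap30 day 7, OSK day 5 and OSK day 7, each library a point. The 6 genes on the left were chosen for the largest and the 4 on the right for the smallest difference between OSK+shSap30 and OSK at day 7, so the picture shows the choice as well as the values, such as Stk26 at 93 and 64 with the hairpin and at 0 in OSK.

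In pluripotent lines the median member stood low, though not every member did, and iPSC stood above ESC. The median member value was 41 and 58 in iPSC and 9 and 13 in ESC, and 20 members were listed at 0 in both ESC libraries. Members at 100 or more numbered 46 and 59 in the iPSC libraries, 30 and 27 in ESC and 174 and 167 in MEF. Of 180 members, 94 were called higher in iPSC and 2 lower, while 4.57% of all tested genes were called higher and 1.65% lower. The median difference was 1.73, against 0.00 over all tested genes. The genes that fell and were not kept moved likewise, with 165 of 401 called higher and a median of 1.39, so the difference was not shown to be particular to the members. The members called higher were 61 without iPSC replicate 2, and 23 when only the 4 iPSC and ESC libraries were fitted. That fit of 4 libraries called 217 of all 16038 tested genes higher in iPSC. The fibroblast list summed to 31257 to 38569 in iPSC and 12666 to 23272 in ESC. Jun itself stood at 297 and 355 in iPSC and 13 and 31 in ESC (log2 difference 3.94, limma adjusted p = 1.39e-06). The part of the list and of Jun in the result was not tested.

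Cav1 had 131 and 243 in iPSC and 0 and 3 in ESC (log2 difference 6.49, limma adjusted p = 6.49e-07). Timp3 had 527 and 1281 in iPSC and 5 and 23 in ESC (log2 difference 6.10, limma adjusted p = 8.87e-07), a call lost when only the 4 iPSC and ESC libraries were fitted (limma adjusted p = 0.0552). S100a6 had 222 and 320 in iPSC and 9 and 13 in ESC (log2 difference 4.50, limma adjusted p = 1.87e-08). Each was higher in both iPSC libraries than in either ESC library and under its MEF level. In the other direction, Itgb3 had 22 and 32 in iPSC and 98 and 56 in ESC (log2 difference -1.45, limma adjusted p = 0.0329) and Glis3, a zinc finger factor gene, had 27 and 32 in iPSC and 78 and 94 in ESC (-1.51, limma adjusted p = 0.0258). The calls of Itgb3 and Glis3 were also lost when only those 4 libraries were fitted (limma adjusted p = 0.112 and 0.0519). The call of Itgb3 was lost without iPSC replicate 1 (-1.19), iPSC replicate 2 (-1.71) or ESC replicate 1 (-1.05), and that of Glis3 without any of the 4 libraries (-1.64 to -1.38). Some members were expressed in the stem cell lines: Lrrc15 had 133 and 214 in iPSC and 226 and 166 in ESC, above its 4 and 1 in OSK day 7, and 32 members were lower in OSK day 7 than in ESC by 1 or more without overlap (20.0% of all tested genes), while 90 were higher (20.8%), a comparison that shares OSK day 7 with the rule.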

How the data were processed

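The authors deposited 1 table of whole-number expression values, a normalised score rather than read counts, for 26 libraries. RNA was extracted with TRIzol, and TruSeq libraries were run on a NextSeq instrument, per the labels' protocols. The tools named are bcl2fastq, RSEM and Bowtie2, with mm10 as the build, per the submitters' processing notes; versions and the normalisation step are not given in the sources used here. Every library had a median of 61, and totals ran from 4619641 to 4624161, so depth is unknown and no counting interval is given. Of 18198 genes, 18039 matched a symbol of the mm10 annotation and 159 did not, and 0 sample columns were unused.

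Values plus a pseudocount of 1 were taken to log2, and genes with 10 or more in 2 or more libraries (16038, including all 180 members, which MEF alone carried through) were fitted with limma 3.58.1 in R 4.3.3 (trend and robust, 1 mean per group over all 26 libraries). Calls needed a Benjamini-Hochberg adjusted p from limma, over all tested genes, under 0.05 and a log2 difference of 1 or more. The fit was tested on simulated data first. The design allowed for counts, which the table does not hold. Comparisons that reuse the rule's libraries (MEF, OSK days 0 and 7, OSK+cJun day 7) were not tested.

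The members and gene lists were chosen with earlier results of these data known. Named genes were the 12 largest and 6 smallest day 3 differences, the 8 highest in MEF, the 6 largest and 4 smallest hairpin differences, those nearest a threshold, up to 4 members per list by MEF mean and the 4 highest in iPSC and at OSK day 3. Dse, Ebf3, Glis3, Hbegf, Igf1, Met, Myof, Ptgs2, Sema3c and Tnfrsf11b, and the genes named for the day 1 to 3 step in OSK and for iPSC, were chosen after their values were seen. One gene that the rule names is not reported here. Alternatives were other pseudocounts, no filter, fewer libraries, a replicate block, another variance model and another reading of the MEF threshold. Figures were drawn with matplotlib 3.10.9.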

Additional observations from a re-analysis of the deposited data

Results flagged for a closer look

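From day 1 to 3, Myof changed by 2.08 more in OSK+cJun than in OSK on the log2 scale (limma adjusted p = 0.0288), which a test of the difference between the courses picked out. The call was lost in 5 of the 8 fits that left out a library, where the difference ran from 1.80 to 2.13, and when only the 8 libraries compared were fitted (adjusted p = 0.12).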

How the results depend on the processing

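The alternatives were tried on 7 counts of members called, each in 1 preset direction, so a count could move but could not reverse. A fit of the compared libraries alone gave 0 members at day 1, 0 lower at OSK day 5, 0 lower at OSK+cJun day 3, 4 for the difference between courses and 23 for iPSC. Of all 16038 tested genes that fit called 0, 0, 6, 8 and 217 in the same order, so it called few genes of any kind. A pseudocount of 0.1 gave 0 lower at OSK day 5, with 14 of all tested genes called. A pseudocount of 10 gave 17 at day 1, 2 at OSK day 5, 7 at OSK+cJun day 3 and 5 for the courses, out of 299, 74, 145 and 18 among all tested genes. Where 0 were called by limma, 75, 17 and 51 members had an unadjusted p under 0.05 at day 1, OSK day 5 and OSK+cJun day 3 in the fit of compared libraries. No filter, another variance model and another reading of the MEF threshold kept all 7 counts within 1.5 times. Leaving out 1 library gave 58 to 72 higher at day 3, 2 to 7 at day 1, 36 to 56 lower at OSK day 3, 0 to 2 lower at OSK day 5, 0 to 2 lower at OSK+cJun day 3, 0 to 1 for the courses and 61 to 91 in iPSC. These fits hold fewer libraries, and the cause of the other changes was not tested. Arms left with 1 library were assumed to vary like the other groups.

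Replicate numbers were not taken to pair the libraries, because the labels tie them to no shared source and the correlation of deviations between same-numbered libraries was over 0.1 in 28 of 78 pairs of groups, not in all (-0.0883 to 0.331). With the number as a replicate block, 98 members were higher at day 3, 16 at day 1, 84 lower at OSK day 3, 2 lower at OSK day 5, 6 lower at OSK+cJun day 3, 1 for the courses and 97 higher in iPSC. Over all 16038 tested genes the block fit called 713, 239, 525, 45, 120, 1 and 779 in the same order. Among named genes under the block, 2 gained a call at day 3, Il1rn (3.50, adjusted p = 0.023) and Sparc (1.34, adjusted p = 0.0234), and 0 lost one. Over all settings, named genes gave 1036 values on the same side of the threshold, 109 that lost a call and 14 that gained one.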
